A study of Mus musculus with 16 samples.

Results

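The spleen was compared with the 7 other mouse tissues of the series. The spleen is represented by 2 of the 16 short-read RNA-Seq libraries, 1 from fed and 1 from fasting animals, and the 14 others come from muscle, liver, white adipose tissue, brown adipose tissue, heart, kidney and lung. The libraries were chosen by their labelled tissue. All animals were wild-type male C57BL/6 mice that were 12 weeks old when acquired. They were either fed chow ad libitum or fasted for 24 h, and tissue from 3 mice of a treatment was pooled, so each tissue and treatment has 1 library. Fed and fasting spleen served here as the pair of spleen libraries, and the effect of fasting was not examined. Because all tissues come from the same 2 pools of mice, p-values rest on how far the fed and the fasting library differ within each tissue, and not on independent animals.

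The spleen filters blood and houses lymphocytes. Its white pulp holds B cell follicles and T cell zones around small arteries, the marginal zone lies between white and red pulp and captures blood-borne antigen, and the macrophages of the red pulp take up aged red cells and recycle their iron. In mice the red pulp also holds precursors of red cells, platelets and neutrophils. The data are from whole tissue, so fewer cells of a type and less RNA per cell cannot be told apart.

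The label was checked with Ighm, the constant part of the IgM heavy chain, and Ms4a1, which encodes the B cell surface protein CD20. Ighm stood at 4880 CPM (counts per 1000000 counts of the library) in fed and 5195 CPM in fasting spleen, against 8.35, 19.7 and 338 CPM as lowest, median and highest of the 14 other libraries. Ms4a1 stood at 883 and 861 CPM, against 0, 1.91 and 46.0 CPM. For both genes the 2 spleen libraries were far above every other library.

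The libraries held 14245178 to 36069968 counts assigned to genes, with 22649767 in fed and 27832852 in fasting spleen, and a gene with 0 counts in a library could be at up to 0.0832 to 0.2106 CPM (3 counts, counting error only). At 1 CPM or more, 16911 genes were detected in fed and 16955 in fasting spleen. The spleen libraries were the most even of the series, since their 10 most abundant genes took 7.78% and 7.84% of counts, against 8.14% to 37.0% elsewhere. The fed spleen library stood apart from the fasting one in genes of the pancreatic acinar cell, which secretes digestive enzymes. The pancreatic lipase Pnlip was at 124 CPM in fed and 0.0719 CPM in fasting spleen, the carboxyl ester lipase Cel at 77.2 and 0.18 CPM, and the liver libraries also held Pnlip, at 19.4 and 45.4 CPM. All 17 tested acinar genes were called higher in spleen with both libraries and 1 without the fed one, so they are not described here as genes of the spleen, although they are part of the counts over all genes. Their summed level was 757 CPM in fed and 14 CPM in fasting spleen. The marker genes of the other tissues were present in spleen at 0.102% to 0.302% of their summed level in their own tissue. The kidney gene Kap was at 18.7 and 24.7 CPM in spleen against 17943 and 16230 CPM in kidney, and the lung gene Scgb1a1 at 17 and 18.3 CPM against 13119 and 13985 CPM in lung. The marker lists of these tissues gave 4 of 10 hepatocyte, 10 of 10 skeletal muscle, 9 of 10 adipocyte and 0 of 7 cardiomyocyte genes lower in spleen. Of 8 kidney tubule genes 5 were called higher and 1 lower, and of 7 lung epithelial genes 2 were called higher. The fold change is taken against the mean of log2 levels over the 7 tissues, and Kap, for example, was at 0 CPM in both liver libraries. None of these 7 higher calls was in each tissue. When the other 14 libraries were treated as 1 group, all calls of these 6 lists, higher and lower, were lost, and the median log2 fold change turned from 1.20 to -7.28 for kidney tubule and from 0.67 to -6.88 for lung epithelium. In the comparison with the mean, the number of hepatocyte genes called lower was 1 under total counts, 1 without the fasting and 2 without the fed spleen library, and 8 without lung. The number of lung epithelial genes called higher was 6 under total counts, 7 without lung and 1 without either spleen library.

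Genes were tested with the quasi-likelihood test of edgeR, with tissue and treatment in the model, and called at a Benjamini-Hochberg adjusted p under 0.05 and a log2 fold change past 1. Of 23580 genes tested, 5850 (24.8%) were higher and 4898 (20.8%) lower in spleen than the mean of the other 7 tissues. A stricter rule asked for the same call against each of the 7 tissues separately, and 2252 genes (9.55%) were higher and 664 (2.82%) lower in each. The 5850 and the 2252 include genes that passed the filter on low counts only through spleen, such as most immunoglobulin variable segments. The higher calls of such genes were fixed by the filter, and their number is not given. Libraries were scaled by trimmed mean of M values (TMM), which sets the median log2 fold change of all tested genes at -0.04. Scaling by total counts shifted that median to 0.64, and the share of higher calls against the mean went from 54.4% to 76.4%. Of the 2252 genes higher in each tissue, 2251 were also called so under total counts, and of the 664 lower in each tissue 229 were. CPM carry no TMM factor, and the factors lower spleen relative to most tissues, so a gene called lower in each tissue can still overlap another library in CPM, as Ltbr, Wwtr1, Tjp1 and Tek did. The counts for the gene lists are read against these shares, and no list was tested as a set. The plot of list medians and ranges gives 28 of the 35 lists. Counts for the acinar list and the marker lists of other tissues stand in the text.

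**Figure D1:**
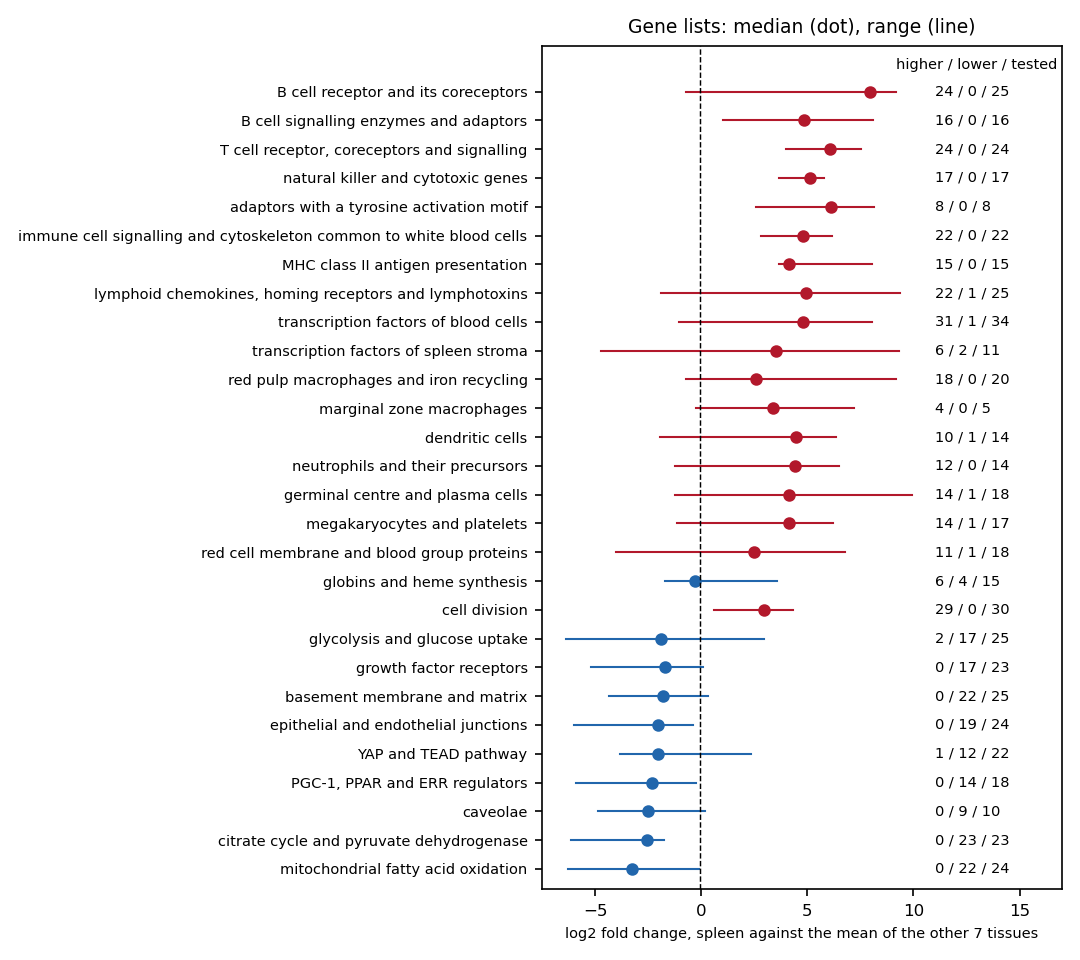
Each line spans the lowest to the highest log2 fold change among the tested members of a gene list, spleen against the mean of the other 7 tissues, and the dot is the median. The text on the right counts members called higher, called lower and tested, and the dashed line is the median of all genes tested (-0.04). The lists of B cell, T cell and antigen presentation genes lie to the right, and those of mitochondrial metabolism, matrix and junctions to the left.

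The lung was the tissue nearest to the spleen on the side of high genes. For 1763 (78.3%) of the 2252 genes higher in spleen than in each tissue, the next highest tissue was lung, followed by white adipose tissue for 319 (14.2%). The 2252 include the genes that passed the filter on low counts only through spleen. Among the 664 genes lower in each tissue, the next lowest was muscle for 250 (37.7%) and liver for 215 (32.4%), while lung was so for 67 (10.1%). Against lung alone 4574 genes were higher and 5197 lower in spleen, and against liver 6549 were higher and 5325 lower. By annotated type, 1241 of 16413 tested protein-coding genes were higher in each tissue.

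The 10 largest fold changes are given for genes at 10 CPM or more in both spleen libraries, with immunoglobulin and T cell receptor segments left aside. Coch, which encodes the secreted protein cochlin known from the inner ear and from follicular dendritic cells, was at 911 CPM in fed and 1186 CPM in fasting spleen. The other 14 libraries had 0, 1.06 and 5.43 CPM as lowest, median and highest. Its log2 fold change was 10 ± 0.17 (SE; edgeR adjusted p = 2.17e-11), and the next tissue, kidney, was 218 times lower. Cr2, the complement receptor of B cells and follicular dendritic cells, was at 1151 and 988 CPM against 0, 1.63 and 25.7 CPM, the highest in fed lung (log2 fold change 9.05 ± 0.19). Fcrl5, an Fc receptor-like protein of B cells, was at 44.2 and 56.6 CPM and at most 0.632 CPM elsewhere. Itgad, the integrin alpha D chain of macrophages, was at 122 and 241 CPM with a highest value elsewhere of 2.52 CPM. It overlaps Cox6a2 on the opposite strand, and the strand setting of the counting is not given in the sources used here, so reads of the pair cannot be told apart.

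Some of these 10 genes encode developmental regulators of the spleen's stroma and vessels. Tlx1, a homeobox factor without which mice form no spleen, was at 25.3 and 22.6 CPM, against 0, 0 and 0.328 CPM elsewhere (log2 fold change 9.32 ± 0.41). Nkx2-3, a homeobox factor of spleen and gut vessels, was at 11.7 and 12.6 CPM and at most 0.0868 CPM elsewhere. Nr5a1, the nuclear receptor SF-1 known from the adrenal gland and the gonads and needed for the spleen's vessels, was at 18.6 and 24.5 CPM and at most 0.182 CPM elsewhere. Madcam1, the addressin of endothelial cells that binds the integrin α4β7, was at 14.2 and 11.4 CPM and at most 0.365 CPM elsewhere. Its log2 fold change of 9.35 ± 0.65 had an adjusted p of 1.06e-05 in edgeR and was not called by DESeq2. Csmd3, a large membrane protein, was at 27.7 and 29.4 CPM against at most 0.304 CPM, and the gene model Gm8221 at 30.3 and 15.7 CPM against at most 0.466 CPM. The 10 genes lie on chromosomes 12 (Coch), 10 (Madcam1), 19 (Tlx1 and Nkx2-3), 15 (Csmd3 and Gm8221), 7 (Itgad), 3 (Fcrl5), 1 (Cr2) and 2 (Nr5a1). In all 10 genes the lower spleen library was above the highest of the other 14. Madcam1, Tlx1, Nkx2-3, Nr5a1, Csmd3 and Gm8221 were under 0.5 CPM in all 14 and passed the filter on low counts only through spleen. Fcrl5, at 0.632 CPM in fed lung and at most 0.361 CPM in the other libraries outside spleen, also passed only through spleen. The higher calls of these genes, Fcrl5 included, were therefore fixed by the filter, and the p-value of Madcam1 adds nothing to its CPM.

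**Figure D2:**
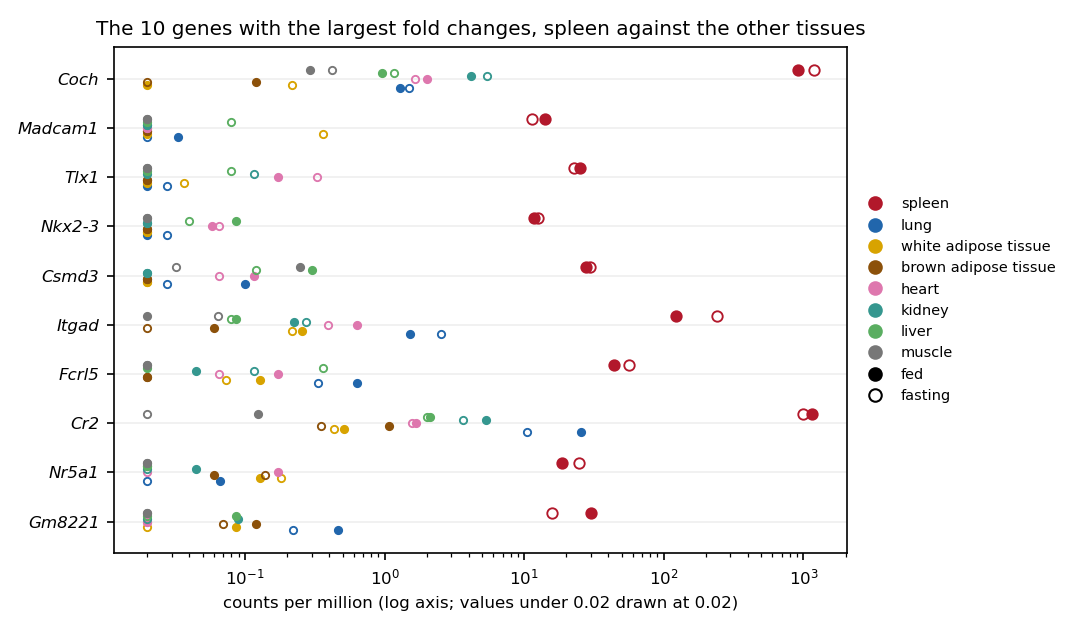
CPM on a log axis of the 10 genes with the largest fold changes in spleen, one point per library, filled for fed and open for fasting, coloured by tissue. Values under 0.02 are drawn at 0.02. For each gene both spleen points lie to the right of all 14 others, with Coch at 911 and 1186 against at most 5.43.

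The 250 bases before the annotated start of Coch and of Tlx1 are shown, since these are the gene with the largest fold change and the organ's developmental regulator. They are from RefSeq (GRCm38.p6), written 5′ to 3′ on the strand of the gene, with no capitals because no word was searched for display.
Coch (chr12:51593091-51593340, plus strand): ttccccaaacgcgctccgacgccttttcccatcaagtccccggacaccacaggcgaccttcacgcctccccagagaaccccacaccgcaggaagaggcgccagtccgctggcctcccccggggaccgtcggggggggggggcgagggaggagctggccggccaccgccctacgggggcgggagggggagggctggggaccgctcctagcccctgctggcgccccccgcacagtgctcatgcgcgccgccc
Tlx1 (chr19:45150465-45150714, plus strand): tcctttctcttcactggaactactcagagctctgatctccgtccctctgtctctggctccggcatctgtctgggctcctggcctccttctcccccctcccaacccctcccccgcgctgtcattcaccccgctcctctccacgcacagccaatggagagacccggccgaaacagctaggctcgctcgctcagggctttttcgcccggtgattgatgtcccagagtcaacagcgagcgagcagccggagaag

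B cell genes were among the clearest differences between spleen and the other tissues. Of the 25 tested genes of the B cell receptor and its coreceptors, 24 were higher in spleen than the mean (background 24.8%) and 22 were higher in each tissue (background 9.55%), with a median log2 fold change of 7.93. Their summed level was 14786 CPM in fed and 14500 CPM in fasting spleen, and 105 to 993 CPM in the other libraries. Fcrl5, among the 24 and the 22, passed the filter on low counts only through spleen. Its higher calls were fixed by the filter. Cd79a and Cd79b, the signalling chains of the receptor, were at 352 and 330 CPM and at 609 and 600 CPM. Cd22, an inhibitory coreceptor, was at 720 and 629 CPM against at most 45.4 CPM in fed lung (log2 fold change 7.93 ± 0.15). Fcer2a, the low-affinity IgE receptor CD23 of follicular B cells, was at 319 and 203 CPM against at most 25.3 CPM. The exception was Cd81, a tetraspanin found on many cell types, at 217 and 240 CPM against 61.4, 270 and 374 CPM, which was not called (log2 fold change -0.70 ± 0.12). All 16 enzymes and adaptors of B cell signalling were higher than the mean and 13 were higher in each tissue. Among them the kinase Syk was at 850 and 935 CPM against at most 118 CPM, the kinase Btk at 121 and 127 CPM against at most 14.5 CPM, and the adaptor Blnk at 237 and 246 CPM against at most 19.7 CPM.

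PU.1, the ETS factor encoded by Spi1, acts in B cells and myeloid cells and binds purine-rich sites. Spi1 itself was at 76.0 and 68.1 CPM in spleen against at most 22.7 CPM elsewhere. The word GAGGAAGT, searched on both strands (ACTTCCTC on the other) in the window from 250 bases before to 50 after each annotated start, was present at 3.69% of all genes of the promoter table (997 of 27025) and at 3.7% of the tested protein-coding genes. It was present at 9.21% of the protein-coding genes higher in each tissue that had a promoter entry (86 of 934) and at 1.82% of those lower in each tissue (8 of 439). Among 16 B cell receptor genes with an entry, it was present at Cd37, Cd72 and Fcrl1. A match is a description of the letters and does not show binding. The 250 bases before these starts are printed with the word in capitals. Cd37, a tetraspanin of B cells, was at 434 and 398 CPM, Fcrl1 at 199 and 192 CPM, and Cd72, an inhibitory receptor, at 156 and 152 CPM. The word begins 25, 15 and 49 bases before the start, in that order.
Cd37 (chr7:45238840-45239089, minus strand): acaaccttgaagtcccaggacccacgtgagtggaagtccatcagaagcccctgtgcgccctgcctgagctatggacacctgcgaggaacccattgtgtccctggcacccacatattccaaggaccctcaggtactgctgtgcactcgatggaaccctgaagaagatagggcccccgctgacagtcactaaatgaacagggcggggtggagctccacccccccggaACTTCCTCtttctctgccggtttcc
Fcrl1 (chr3:87376137-87376386, plus strand): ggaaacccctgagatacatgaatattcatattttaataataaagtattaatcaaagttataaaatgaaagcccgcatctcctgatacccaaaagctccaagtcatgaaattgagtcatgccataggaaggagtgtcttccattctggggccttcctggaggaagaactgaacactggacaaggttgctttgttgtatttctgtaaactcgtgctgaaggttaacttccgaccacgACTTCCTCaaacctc
Cd72 (chr4:43454627-43454876, minus strand): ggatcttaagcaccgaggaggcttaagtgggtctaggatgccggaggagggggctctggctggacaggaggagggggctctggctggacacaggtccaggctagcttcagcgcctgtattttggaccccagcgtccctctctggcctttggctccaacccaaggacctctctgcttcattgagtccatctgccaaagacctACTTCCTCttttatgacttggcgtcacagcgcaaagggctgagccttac

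The octamer ATGCAAAT, known from immunoglobulin promoters, was searched in the same way (ATTTGCAT on the other strand) and was present at 1.97% of all genes, 1.62% of the tested protein-coding genes, 2.68% of those higher in each tissue and 0.911% of those lower in each. Immunoglobulin segments were not in these protein-coding sets.

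IgM and IgD, the classes that naive B cells carry, led the heavy chain constant genes. Per kilobase of constant gene, Ighm held 78.9% of heavy chain constant counts in fed and 81.3% in fasting spleen, and Ighd, the IgD class of mature naive B cells, 12.9% and 11.6%. Ighg2c held 4.19% and 2.5%, Ighg2b 1.82% and 1.6%, Igha 0.891% and 1.38%, and Ighg1 0.333% and 0.657%. Ighe, the IgE class, was at 0.00679% and 0.00669%. Among light chains the kappa constant gene Igkc held 74.7% and 73.8% per kilobase, and the lambda genes the rest. The order of Ighm, Ighd and Ighg2c was the same in both spleen libraries. Variable segments were summed, because reads of near-identical segments can be split by counting. The 185 heavy variable segments of the table summed to 1035 and 1059 CPM against at most 30.9 CPM, in fed lung, and 89 and 87 of them reached 1 CPM in spleen against at most 3 in another library. The 160 kappa segments summed to 1187 and 1159 CPM against at most 35.6 CPM, with 86 and 85 at 1 CPM in spleen and at most 8 in another library. Of each kind 95 segments passed the filter on low counts, most of them only through spleen, so the number called higher was fixed by the filter and is not given. The 3 lambda segments were at 231 and 241 CPM. The leading heavy segment, Ighv1-26, held 6.35% and 6.99% of its locus.

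Germinal centre and plasma cell genes were mixed. Of 18 tested, 14 were higher than the mean, 9 were higher in each tissue and 1 was lower. Jchain, which joins IgM and IgA units, was at 492 and 495 CPM against 0.097, 0.981 and 5.37 CPM (log2 fold change 8.04 ± 0.19). Mzb1, a chaperone of marginal zone B cells and plasma cells, was at 10.2 and 10.8 CPM against at most 0.798 CPM. Sdc1, the syndecan of plasma cells that liver cells also carry, was at 16.4 and 14.4 CPM against 4.14, 15.7 and 270 CPM. It was called lower (log2 fold change -1.25 ± 0.14). That call was lost under total counts, without the liver or the lung, and with the other libraries as 1 group. Xbp1, a regulator of secretory cells, was at 143 and 142 CPM against 45.9 to 235 CPM and was not called.

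T cell and natural killer cell genes were higher throughout the lists. All 24 tested genes of the T cell receptor, its coreceptors and its signalling were higher than the mean and 23 were higher in each tissue (median log2 fold change 6.05), and their summed level was 1502 and 1581 CPM against at most 323 CPM, in fed lung. Cd3e, a signalling chain of the receptor, was at 44.7 and 41.9 CPM against 0, 0.471 and 7.78 CPM. The coreceptors Cd4 and Cd8a were at 90.3 and 94.0 CPM and at 76.7 and 66.7 CPM, and their highest values elsewhere were 18 and 18.3 CPM in fed lung. Ctla4, an inhibitory receptor, was at 6.67 and 11.1 CPM and reached 4.0 CPM in fasting heart, and it was not higher in each tissue. Foxp3, the factor of regulatory T cells, was at 7.24 and 6.65 CPM against at most 0.466 CPM. The 35 beta variable segments of the table summed to 50.2 and 48.7 CPM against at most 11.7 CPM, in fed lung, and 17 and 16 of them reached 1 CPM in spleen.

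All 17 natural killer and cytotoxic genes were higher than the mean and 15 were higher in each tissue, with 265 and 258 CPM in sum against at most 88.5 CPM in fed lung. Ncr1, an activating receptor that defines these cells, was at 22.4 and 19.1 CPM against 0.0415, 0.348 and 7.12 CPM. Gzma, a granule protease, was at 36.2 and 26.3 CPM against at most 20.7 CPM, so spleen was 2.09 times the mean of lung. The median log2 fold change of this list was 2.17 against lung and 8.18 against muscle.

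Genes shared by white blood cells were higher than in each tissue. This held for all 22 listed genes of immune cell signalling and cytoskeleton and for all 8 adaptors with a tyrosine activation motif. Ptprc, the phosphatase CD45 of all nucleated blood cells, was at 2639 and 2342 CPM against 5.14, 24.2 and 373 CPM (log2 fold change 5.56 ± 0.11). Cd53, a tetraspanin of white blood cells, was at 403 and 378 CPM against at most 60.7 CPM. The adaptor Tyrobp, used by myeloid and natural killer receptors, was at 127 and 120 CPM and reached 52.7 CPM in fed lung.

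All 15 MHC class II genes were higher in each tissue, and their summed level was 11012 and 9899 CPM against 75.9 to 2165 CPM. Cd74, the invariant chain that fills the class II groove before peptide loading, was at 3828 and 3331 CPM against 28.3, 108 and 822 CPM (log2 fold change 4.15 ± 0.11). The class II chain gene H2-Aa was at 2043 and 1900 CPM and H2-Eb1 at 1148 and 1088 CPM, with at most 403 and 223 CPM elsewhere. H2 genes are similar in sequence, and counting could split reads among them. Ciita, the master regulator of class II genes, was at 592 and 513 CPM against at most 75.9 CPM. H2-DMb2, part of the peptide exchanger, had the log2 fold change 6.68 ± 0.14. White adipose tissue and lung were the nearest, with median log2 fold changes of this list of 2.68 and 2.97.

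Of 14 dendritic cell genes, 10 were higher than the mean, 7 were higher in each tissue and 1 was lower. Flt3, the receptor that drives their development, was at 59.1 and 65.1 CPM against at most 6.09 CPM. Clec9a and Xcr1, of the cross-presenting type, were at 47.9 and 43.7 CPM and at 25.9 and 15.8 CPM against at most 5.95 and 2.59 CPM. Clec4a4, among the 10 and the 7, was at 5.21 and 7.76 CPM against at most 0.328 CPM. It passed the filter on low counts only through spleen, so its higher calls were fixed by the filter. Itgax, the integrin CD11c, was at 145 and 135 CPM but reached 78.1 CPM in fed lung and was not higher in each. Esam, an adhesion protein of a splenic dendritic cell subset and of endothelium, was at 19.3 and 24.3 CPM against 10.5, 61.3 and 242 CPM. It was called lower (log2 fold change -1.96 ± 0.14), a call lost with the other libraries as 1 group.

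Chemokines and homing receptors that place lymphocytes were higher. Of 25 tested, 22 were higher than the mean, 19 were higher in each tissue and 1 was lower in each. Madcam1, among the 22 and the 19, passed the filter on low counts only through spleen. Its higher calls were fixed by the filter. Cxcl13, the ligand that draws B cells to follicles, was at 128 and 115 CPM against 0.166, 1.16 and 4.98 CPM (log2 fold change 6.31 ± 0.30). Its receptor Cxcr5 was at 209 and 210 CPM against at most 17.5 CPM in fed lung. Ccr7, the receptor for T zone chemokines, was at 97.5 and 93.7 CPM, while its ligand Ccl19 was at 1.19 and 0.359 CPM and was not called by DESeq2. Ccl21a, the other ligand, did not pass the filter on low counts and was at 0 and 0.0359 CPM, a gene with near-identical copies. The lymphotoxin genes Lta and Ltb were at 14 and 10.6 CPM and at 220 and 203 CPM, against at most 0.566 and 19.6 CPM. Their receptor Ltbr was the one lower in each tissue, at 21.8 and 20.3 CPM against 18.2, 63.3 and 83.8 CPM (log2 fold change -1.92 ± 0.17). Cxcl12, a stromal chemokine, was at 291 and 400 CPM against 35.7 to 240 CPM and was not called (log2 fold change 0.87 ± 0.22).

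Transcription factors of blood cells followed the same side. Of 34 tested, 31 were higher than the mean, 21 were higher in each tissue and 1 was lower. Foxp3, among the 31 and the 21, passed the filter on low counts only through spleen. Its higher calls were fixed by the filter. Pax5, the factor of B cell identity, was at 640 and 601 CPM against 0, 1.43 and 42.7 CPM (log2 fold change 8.06 ± 0.19). Spib and the octamer coactivator gene Pou2af1 were at 362 and 347 CPM and at 274 and 316 CPM, against at most 21.1 and 22.1 CPM. Ikzf1, the lymphoid factor Ikaros, was at 511 and 510 CPM against at most 66.7 CPM, and Ikzf3 at 475 and 385 CPM against at most 41.3 CPM. Tcf7, a factor of T cells, was at 108 and 110 CPM against at most 45.9 CPM in fed lung. Ebf1, which acts in B cells and in adipocytes, was at 349 and 323 CPM in spleen and reached 346 CPM in fed white adipose tissue, so it was higher than the mean but not than each tissue. Gata1, of red cells and megakaryocytes, was at 2.12 and 3.56 CPM against at most 1.06 CPM. Gata2, also of endothelium, was at 8.57 and 11.1 CPM, reached 163 CPM in fasting lung and was called lower (log2 fold change -1.05 ± 0.17). That call was lost under total counts, without heart, kidney or lung, and with the other libraries as 1 group. Bcl6, the germinal centre repressor, was at 70.2 and 60.9 CPM against 14.8 to 72.4 CPM and was not called.

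Of 11 tested factors of the spleen's stroma, 6 were higher than the mean and 2 were lower (1 under total counts, 0 with the other libraries as 1 group). Among the 6, Tlx1, Nr5a1 and Nkx3-2 passed the filter on low counts only through spleen. Their higher calls, also those in each tissue, were therefore fixed by the filter. Nkx3-2, a homeobox gene of the spleen's mesenchyme, was at 5.52 and 4.81 CPM against at most 0.0446 CPM. Nkx2-5, a factor of the heart that is also expressed in the spleen's mesenchyme, was at 5.43 and 5.25 CPM, and at 52.9 CPM in fed heart. Its higher call against the mean turned to a log2 fold change of -1.13 with the other libraries as 1 group, in which case 3 factors of the list were called higher. Tbx1 was at 0.0442 and 0.0359 CPM, below the level of 3 counts, and lower in each tissue.

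Macrophage genes of the red pulp were higher than the mean for 18 of 20 and in each tissue for 9, with a median log2 fold change of 2.59. Spic, the factor of red pulp macrophages, was at 103 and 128 CPM against 0.0646, 0.503 and 1.52 CPM (log2 fold change 7.31 ± 0.17). Vcam1, an adhesion molecule of these cells and of endothelium, was at 527 and 1023 CPM against at most 76.7 CPM. Hmox1, which opens the heme ring and releases iron, was at 228 and 199 CPM against 4.03, 15.4 and 56.5 CPM. Slc40a1, the iron exporter ferroportin, was at 489 and 576 CPM and reached 183 CPM in fed liver, and it was higher than the mean but not than each tissue. Cd5l, a macrophage protein, was at 93.5 and 113 CPM and reached 69.8 CPM in fed liver. Cd163, the hemoglobin scavenger receptor, was at 42.4 and 93.3 CPM and higher in fasting white adipose tissue, at 175 CPM. Blvrb, a biliverdin reductase, and the heme transporter Slc48a1 were not called (log2 fold changes 0.83 ± 0.15 and -0.70 ± 0.14). White adipose tissue and liver were the nearest to spleen in this list, with medians of 1.22 and 1.86.

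Marginal zone macrophages are known by a few surface receptors, and 4 of 5 tested were higher than the mean (2 with the other libraries as 1 group) and 2 in each tissue. Marco, a scavenger receptor, was at 148 and 247 CPM against 0, 0.524 and 11.5 CPM (log2 fold change 7.19 ± 0.28). Siglec1, the sialic acid receptor of metallophilic macrophages, was at 132 and 170 CPM against at most 41.7 CPM. Cd209b, the lectin that captures bacterial sugars, was at 20.2 and 39.3 CPM and reached 17.2 CPM in fasting white adipose tissue.

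Neutrophil genes separated spleen from most tissues but not from lung. Of 14 tested, 12 were higher than the mean and 1 in each tissue, and 2 were higher with the other libraries as 1 group. The median log2 fold change was 4.42 against the mean and 0.04 against lung. The summed level was 209 and 150 CPM in spleen and 304 CPM in fasting lung. S100a8, a calcium-binding protein of mature neutrophils, was at 33.3 and 20.3 CPM and at 30.0 CPM in fed lung. Ltf, lactoferrin, was at 3.4 and 6.04 CPM in spleen and 132 CPM in fasting lung, and its log2 fold change of 4.13 ± 0.44 became -1.46 with the other libraries as 1 group. Mpo, of immature neutrophils, was at 2.16 and 3.27 CPM against at most 1.52 CPM.

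The platelet list also came close to lung in its median fold change, but not in its summed level. That sum was 326 CPM in fed and 373 CPM in fasting spleen, and 839 and 1072 CPM in lung. White adipose tissue had 568 and 377 CPM, and the libraries of the remaining tissues had less than spleen. Of 17 tested, 14 were higher than the mean (3 with the other libraries as 1 group), 3 were higher in each tissue and 1 was lower, with a median of 4.12 against the mean and 0.68 against lung. Ppbp, a platelet chemokine, was at 51.6 and 59.1 CPM against 0.249, 1.55 and 26.2 CPM and was higher in each tissue. Itga2b, the platelet integrin chain, was at 29.8 and 37.3 CPM against at most 23.0 CPM in fasting lung. Vwf, which endothelium also makes, was at 38.5 and 52.9 CPM against 8.24, 46.1 and 886 CPM and was called lower (log2 fold change -1.15 ± 0.27). That call was lost under total counts, without the fed spleen library, without lung or white adipose tissue, and with the other libraries as 1 group.

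The hemoglobin chains stood at unlike levels in the spleen libraries, a difference that was not tested. The hemoglobin chains summed to 3649 CPM in fed and 8835 CPM in fasting spleen, and to 3178 and 3136 CPM in lung, the next tissue. Hbb-bs, an adult beta chain, was at 2075 and 4947 CPM against 63.4, 274 and 1818 CPM (log2 fold change 2.80 ± 0.18), and was not higher than in each tissue, whereas Hbb-bt, its neighbour and near copy, at 403 and 1121 CPM against at most 249 CPM, was. Of 15 tested genes of globins and heme synthesis, 6 (40.0%, background 24.8%) were higher than the mean and 4 (26.7%, background 20.8%) lower. With the other libraries as 1 group 3 were higher. The share of lower genes was near that of all genes tested. Alas2, the first enzyme of heme synthesis in red cells, was at 166 and 398 CPM against at most 131 CPM. The 4 lower genes, Alad, Cpox, Fech and Urod, encode enzymes of heme synthesis, and 0 of them were called lower with the other libraries as 1 group. Alad was at 18 and 18.3 CPM against 10.7, 39.4 and 94.6 CPM, and Urod at 22.3 and 27.3 CPM against 25.6, 47.5 and 60.3 CPM. The lower calls of Urod, Cpox and Fech were lost under total counts, and that of Fech also without the fed spleen library.

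Of 18 red cell membrane and blood group genes, 11 were higher than the mean (5 with the other libraries as 1 group), 5 were higher in each tissue and 1 was lower in each. Slc4a1, the band 3 anion exchanger, was at 41.1 and 129 CPM and reached 56.6 CPM in fed kidney, which uses it in acid secretion. Rhag, the Rh-associated glycoprotein, was at 0.751 and 4.56 CPM against at most 0.499 CPM. Aqp1, the water channel of red cells, endothelium and kidney tubules, was lower in each tissue, at 23.0 and 40.6 CPM against 76.6, 316 and 840 CPM (log2 fold change -4.02 ± 0.21).

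GATA factors act in red cell precursors. Their word GATAAG, or its reverse complement CTTATC on the other strand, was searched in the same windows. It was present at 8.58% of all genes (2320 of 27025), at 7.04% of the tested protein-coding genes (894 of 12690) and at 8.78% of those higher in each tissue. Of 13 red cell membrane genes with an entry it was present at 6, namely Epb42, Epor, Icam4, Kel, Rhag and Rhd, and of 12 globin and heme genes at 6, namely Cpox, Hba-a1, Hba-a2, Hbb-bs, Hbb-bt and Uros. The pairs Hba-a1 and Hba-a2, Hbb-bs and Hbb-bt are near copies and do not count as independent. The word was present at 5.24% of the genes lower in each tissue. Hbb-bs and Epb42, a membrane skeleton protein at 4.42 and 14.2 CPM, are printed with the word in capitals, which begins 209 and 227 bases before the start.
Hbb-bs (chr7:103827929-103828178, minus strand): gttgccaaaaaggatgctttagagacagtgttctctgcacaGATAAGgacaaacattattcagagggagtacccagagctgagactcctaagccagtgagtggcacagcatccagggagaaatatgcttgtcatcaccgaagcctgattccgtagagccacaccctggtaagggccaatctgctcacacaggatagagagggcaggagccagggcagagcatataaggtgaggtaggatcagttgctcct
Epb42 (chr2:121036878-121037127, minus strand): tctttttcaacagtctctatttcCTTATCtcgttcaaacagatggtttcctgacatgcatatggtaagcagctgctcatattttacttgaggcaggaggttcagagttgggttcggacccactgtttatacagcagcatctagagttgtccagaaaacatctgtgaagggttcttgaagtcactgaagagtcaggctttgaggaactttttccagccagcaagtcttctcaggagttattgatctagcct

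**Figure D3:**
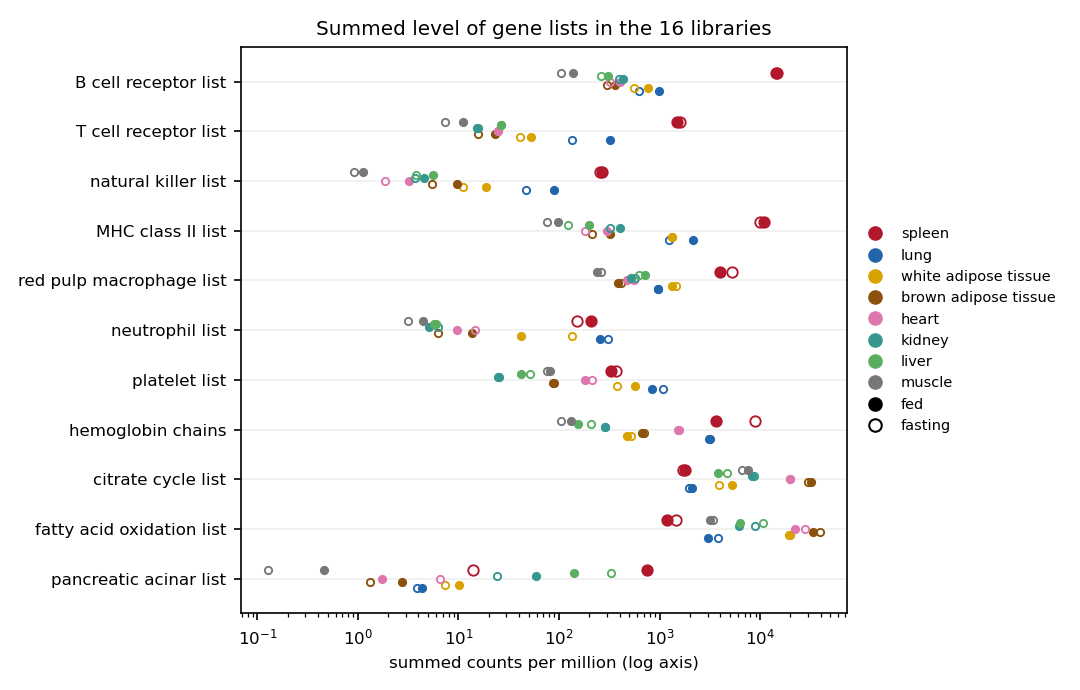
Summed CPM on a log axis of 10 gene lists and the hemoglobin chains, one point per library, filled for fed and open for fasting, coloured by tissue. Spleen lies above every other library for the B cell, T cell, natural killer, MHC class II and red pulp lists and the hemoglobin chains, below every other for the citrate cycle and fatty acid oxidation lists, and among them for the neutrophil and platelet lists. The acinar list is at 757 in fed and 14 in fasting spleen.

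Cell division genes were higher in spleen for 29 of 30 tested, and in each tissue for 24, with a median log2 fold change of 2.95. Mki67, a protein of dividing cells, was at 200 and 211 CPM against 0.711, 7.55 and 57.7 CPM (log2 fold change 4.12 ± 0.14). Top2a, the topoisomerase of dividing cells, was at 113 and 100 CPM against at most 35.2 CPM in fed lung. Ccnb1, the mitotic cyclin, was at 10.7 and 10.6 CPM against at most 3.53 CPM. Tyms, the thymidylate synthase, was at 12.6 and 12.4 CPM against 0.84, 5.62 and 21.1 CPM and was not called.

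Ribosomal protein genes were looked at after their values were seen. Of 76 tested, 46 were higher than the mean, 11 were higher in each tissue and 0 were lower, with a median log2 fold change of 1.05. They summed to 36023 CPM in fed and 38484 CPM in fasting spleen against 7378 to 15407 CPM. Per kilobase of gene, Igkc was at 3262 and 3276 CPM and Ighm at 2588 and 2754 CPM. With immunoglobulin and T cell receptor genes left aside, the 10 most abundant genes among those higher in each tissue were Snord17, Cd74, Gm22009, Hbb-bt, Gm26448, Rps27, H2-Eb1, Rps4x, H2-Aa and H2-Ab1. Rps27, a protein of the small ribosomal subunit, was at 887 and 1009 CPM against 110 to 301 CPM, and Rps4x at 856 and 936 CPM against 143 to 380 CPM. The genes Snord17, Gm22009 and Gm26448 are short noncoding genes, for which a value per kilobase depends strongly on the annotated length.

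Among the lists with members lower in spleen were those of oxidative metabolism, matrix, junctions and growth factor receptors, described in turn after the genes with the largest fold changes. The 10 genes with the largest fold changes to lower levels, among genes at 10 CPM or more in at least 4 other tissues, were Timp4, Myh4, Acta1, Myl1, Lnx1, Ces1d, Fbp2, Adora1, Car14 and Aqp7. Timp4, Lnx1 and Fbp2 held under 3 counts in each spleen library, and Myl1 held under 3 in fed spleen. Their exact fold changes and their order are therefore uncertain. Timp4, an inhibitor of matrix proteases, was at 0.0883 and 0 CPM in spleen against 0.347, 27.3 and 356 CPM (log2 fold change -8.87 ± 0.87). It overlaps Syn2 on the opposite strand. Ces1d, a carboxylesterase of liver and fat, was at 4.11 and 3.49 CPM against 21.5, 551 and 1848 CPM (log2 fold change -7.5 ± 0.38). Aqp7, the glycerol channel of fat, was at 0.221 and 0.144 CPM against 0.478, 29.3 and 253 CPM. Myh4, Acta1 and Myl1 are contractile genes of skeletal muscle, and they were lower than the mean but not than each tissue.

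All 23 genes of the citrate cycle and pyruvate dehydrogenase were lower than the mean (background 20.8%), 2 were lower in each tissue (background 2.82%) and 2 were lower with the other libraries as 1 group. The median log2 fold change was -2.54 against the mean, -4.26 against brown adipose tissue and -0.05 against lung, where 2 of 23 were called lower. The summed level was 1782 and 1724 CPM in spleen, 1951 CPM in the lowest of the other libraries and 32168 CPM in fed brown adipose tissue. Cs, citrate synthase, was at 158 and 146 CPM against 101, 369 and 2474 CPM. Idh2, the mitochondrial isocitrate dehydrogenase, was lower in each tissue, at 46.4 and 47.8 CPM against 74.2, 166 and 2327 CPM. Pcx, pyruvate carboxylase, was at 7.28 and 6.65 CPM against 40.6, 667 and 1301 CPM (log2 fold change -6.16 ± 0.41).

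Fatty acid oxidation gave 22 of 24 genes lower than the mean, 5 lower in each tissue and 8 lower with the other libraries as 1 group, with a median of -3.25. The median was -5.26 against brown adipose tissue and -0.66 against lung. Acadm, the medium-chain dehydrogenase, was at 54.0 and 59.0 CPM against 73.2, 485 and 2259 CPM. Cpt1a, the liver form of the enzyme that admits fatty acids to mitochondria, was at 106 and 207 CPM against 11.6, 129 and 1439 CPM and was not called, nor was Acsl5, at 128 and 110 CPM against 5.07 to 550 CPM.

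Of 18 regulators of oxidative genes around PGC-1, PPAR and ERR, 14 were lower than the mean, 6 were lower in each tissue and 7 were lower with the other libraries as 1 group. Ppara, the fatty acid receptor of liver and heart, was at 1.06 and 1.22 CPM against 6.12, 49.3 and 363 CPM (log2 fold change -5.92 ± 0.45). Ppargc1a, the coactivator PGC-1α, was at 4.37 and 4.49 CPM against 12.3, 40.9 and 174 CPM. Nr1d1, a nuclear receptor of the clock loop, was also lower in each tissue, at 11.1 and 15.6 CPM against at least 46.7 CPM. Thrb, a thyroid hormone receptor, was at 6.53 and 8.05 CPM against at least 29.7 CPM.

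Glycolysis and glucose uptake gave 25 gene models, of which 17 were lower and 2 higher than the mean, while 0 were lower with the other libraries as 1 group. Pfkm, the muscle phosphofructokinase, was at 10.2 and 12 CPM against 19.4, 52.8 and 3267 CPM and was lower in each tissue. The higher genes were blood cell forms. Hk3, the hexokinase of white blood cells, was at 30.9 and 24.6 CPM against 0.517, 1.53 and 10.9 CPM, and Slc2a3, the glucose carrier GLUT3, at 69.1 and 74.4 CPM against at most 36.2 CPM. The median of the list was -1.90 against the mean and 0.05 against lung.

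**Figure D4:**
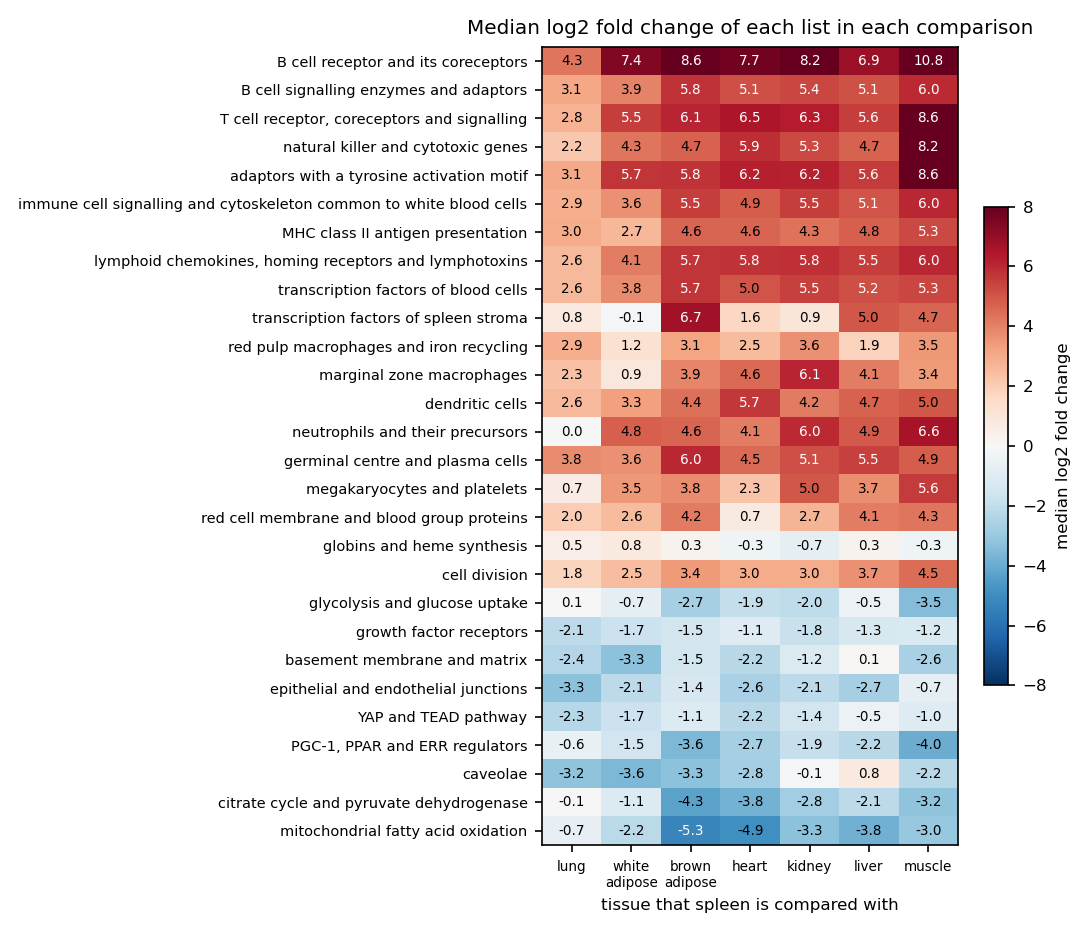
Median log2 fold change of each gene list in spleen against each of the 7 tissues, in rows and columns, with the value printed in each cell, red above and blue below 0. The lung column is paler than most others for most blood cell lists, with 4.30 for the B cell receptor list against 10.84 for muscle, and near 0 for the citrate cycle (-0.05), glycolysis (0.05) and neutrophil (0.04) lists.

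Cells of solid tissues read contact and stretch through the YAP and TEAD pathway. Of its 22 genes, 12 were lower than the mean (6 with the other libraries as 1 group), 5 were lower in each tissue and 1 was higher. Liver was the nearest tissue, with a median log2 fold change of -0.49 and 4 genes higher and 7 lower in spleen, and the summed level was 1128 and 1165 CPM in spleen and 619 and 564 CPM in liver. Yap1, the coactivator, was at 28.1 and 31.5 CPM against 51.3, 98.1 and 147 CPM (log2 fold change -2.40 ± 0.11). Its paralog Wwtr1, which encodes TAZ, was at 27.1 and 30.1 CPM against 23.8, 119 and 271 CPM. Tead3, Amotl2 and Amot were also lower in each tissue. Stk4, the upstream kinase MST1 with a known role in lymphocytes, was the gene on the other side, at 403 and 392 CPM against 14.5, 45.7 and 224 CPM (log2 fold change 2.36 ± 0.07).

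**Figure D5:**
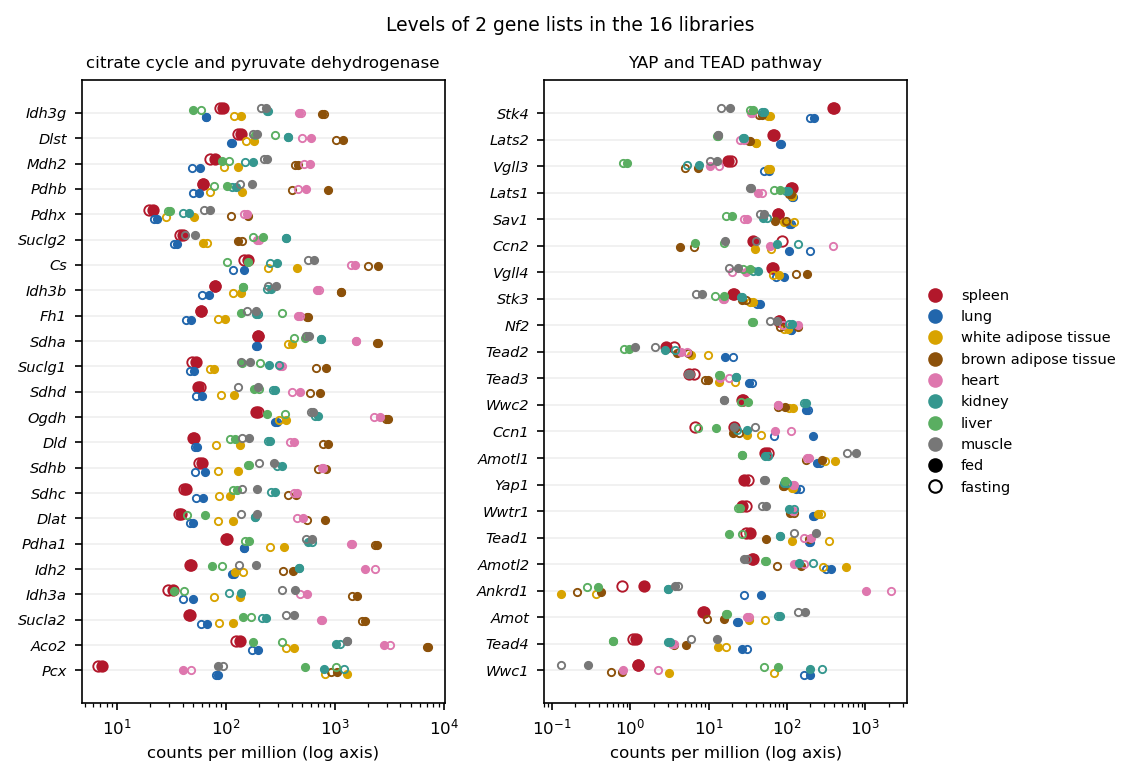
CPM on a log axis of the genes of the citrate cycle with pyruvate dehydrogenase (left) and of the YAP and TEAD pathway (right), one point per library, filled for fed and open for fasting, coloured by tissue. Spleen is at the low end for most genes, and Stk4 at 403 and 392 is to the right of all other libraries.

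Junction genes of epithelia and endothelia gave 19 of 24 lower than the mean (5 with the other libraries as 1 group), 4 lower in each tissue and 0 higher. Muscle was the nearest tissue, with a median log2 fold change of -0.72 and 2 genes higher and 9 lower in spleen. The summed level was 912 and 965 CPM in spleen and 737 and 689 CPM in muscle. Pkp2, a plakophilin of desmosomes, was at 1.15 and 0.755 CPM against 3.32, 44.4 and 322 CPM (log2 fold change -6.02 ± 0.31). Cdh13, the cadherin that binds adiponectin, was at 0.927 and 1.47 CPM against 4.09, 55.6 and 239 CPM. Tjp1, the scaffold ZO-1, was at 37.4 and 45.5 CPM against 42.1, 159 and 666 CPM, and the polarity gene Pard3 at 11.5 and 13.1 CPM against at least 44.3 CPM. Of 10 caveola genes 9 were lower than the mean (1 with the other libraries as 1 group). Against liver the list turned the other way, with a median log2 fold change of 0.81 and 3 genes higher and 1 lower, and against kidney the median was -0.14. Cav1, the main coat protein, was at 29.0 and 32.6 CPM against 6.61, 278 and 3238 CPM, and Pacsin3, a membrane-bending protein, was the caveola gene lower in each tissue, at 2.16 and 2.66 CPM against at least 15.1 CPM.

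Of 25 genes of basement membrane and matrix, 22 were lower than the mean (15 under total counts, 3 with the other libraries as 1 group) and 4 were lower in each tissue. Lamb1, a laminin chain, was at 11.6 and 9.05 CPM against 15.4, 196 and 404 CPM (log2 fold change -4.35 ± 0.21). Dcn, the collagen-binding decorin, was at 37.9 and 43.9 CPM against 59.4, 267 and 1538 CPM. Against liver the median of this list was 0.10, so liver and spleen were close. Of 23 growth factor receptor genes 17 were lower than the mean (5 with the other libraries as 1 group) and 5 in each tissue. Ghr, the growth hormone receptor, was at 13.4 and 17.5 CPM against 113, 313 and 1592 CPM (log2 fold change -5.21 ± 0.34). Egfr was at 16 and 17.6 CPM against 23.1, 81.2 and 1380 CPM, and the BMP receptor Bmpr1a at 31.5 and 37.4 CPM against 56.2, 133 and 171 CPM. Tek, the angiopoietin receptor of endothelium, was at 20.1 and 21.9 CPM against 19.0, 85.0 and 481 CPM.

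A gene was called missing from spleen when it was under 0.5 CPM in both spleen libraries and at 1 CPM or more in all 14 others. No test was part of this rule. It was met by 11 genes, and all 11 were also called lower in each tissue. Magix, a PDZ-domain gene on chromosome X, was at 0.177 and 0.287 CPM against 4.56, 10.4 and 34.3 CPM (log2 fold change -6.25 ± 0.27). Ctf1, the cytokine cardiotrophin-1, was at 0.309 and 0.0719 CPM against 2.68, 4.39 and 6.32 CPM. Adcyap1r1, the receptor of the neuropeptide PACAP, was at 0.265 and 0.144 CPM against 2.25, 4.92 and 128 CPM. Folr2, a folate receptor of tissue macrophages, was at 0.442 and 0.395 CPM against 1.91, 3.96 and 37.5 CPM. Bmp5, a bone morphogenetic protein, was at 0.177 and 0.18 CPM against 1.16, 4.38 and 92.7 CPM. The others were Osbp2, Fam19a5, Kcnt2, Gm15902, Mfsd4b3 and Gm8834, with log2 fold changes of -6.12, -4.91, -4.95, -3.27, -4.93 and -4.30. Ctf1 (with Ctf2), Folr2 (Gm10602), Kcnt2 (4930590L20Rik) and Bmp5 (Gm26903) overlap another gene on the opposite strand and Mfsd4b3 overlaps Mfsd4b5 on its own, so their reads are uncertain. The spleen level of several is close to 3 counts (0.1325 CPM in fed and 0.1078 CPM in fasting spleen), so they were low at this depth rather than shown to be absent.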

How the data were processed

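Short-read RNA-Seq was made by the authors from pooled tissue (strand-specific paired-end libraries). Per the study's methods and processing notes, reads were trimmed (fastp 0.23.2), quality was checked (FastQC 0.11.8), and alignment used HISAT2 2.2.1.0 on GRCm38. Gene totals came from featureCounts in Subread 2.0. The values deposited by the authors are raw counts per gene, not normalized. The strand setting of the counting is not given in the sources used here. The table has 55385 genes, of which 37084 have a count, and its 37 mitochondrially encoded genes hold 0 counts in all libraries. Symbols come from the GENCODE annotation of GRCm38, and 241 identifiers had none. Libraries were grouped by labelled tissue and treatment.

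Counts were tested in R 4.3.3 with edgeR 4.0.16 (filterByExpr, TMM, glmQLFit and glmQLFTest, tissue plus treatment, 7 residual degrees of freedom) and Benjamini-Hochberg adjustment over the 23580 genes tested. The TMM factors were 0.5238 to 1.532, with 1.532 and 1.506 in spleen. The contrast against the mean weights the 7 tissues equally on the log2 scale. CPM values use library totals without these factors. The scripts were tested on simulated data. DESeq2 1.42.0, total counts, no filter, another model, other thresholds, each tissue left out and each spleen library left out were tried as alternatives. Named genes were members of the lists, the 10 largest fold changes each way at 10 CPM or more, the 10 highest per kilobase and all missing genes. The members and 35 lists (602 of 603 genes matched) were chosen with earlier results of these data known. A few list members are counted in the lists but not reported here by name.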

Additional observations from a re-analysis of the deposited data

How the results depend on the processing

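The number of genes higher than the mean was 9266 under total counts, 3078 with the other 14 libraries as 1 group and 3356 at a log2 threshold of 2, and the number lower 2855, 917 and 2562. Genes higher in each tissue numbered 1382 at a threshold of 2. Genes lower in each tissue numbered 229 under total counts, 1004 without the liver, 1166 with no fold threshold and 216 at a threshold of 2. Missing genes numbered 1 at a spleen limit of 0.2 CPM, 3 at 2 CPM elsewhere and 28 on TMM-scaled CPM. Without the fed spleen library 5395 genes were higher and 4296 lower than the mean, 1857 higher and 543 lower in each tissue. Without the fasting one these were 5399, 4375, 1677 and 613.

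Counts for lists with the libraries as 1 group or without a spleen library were added after seeing the data. As 1 group, the other tissues' differences count as error, and the members called higher were 2 for marginal zone macrophages, 2 for neutrophils, 3 for globins and heme, 5 for red cell membrane, 3 for platelets, 3 for stromal factors and 0 for acinar cells. Those called lower were 6 for YAP and TEAD, 5 for junctions, 1 for caveolae, 3 for matrix, 5 for growth factor receptors, 8 for fatty acid oxidation, 2 for the citrate cycle, 7 for PGC-1 regulators and 0 for glycolysis. Without the fed spleen library 1 acinar gene was called, and without the fasting one 18. Of the 28 lists in the plot of list medians, 27 kept the sign of their median under total counts, where globins and heme moved from -0.28 to 0.41. They moved to 0.40 without the fed spleen library, and stromal factors moved from 3.51 to -0.18 as 1 group, the other 27 lists keeping their sign in each case. Among the marker lists of other organs, cardiomyocytes moved from -0.40 to 0.28 under total counts. As 1 group, kidney tubule moved from 1.20 to -7.28 and lung epithelium from 0.67 to -6.88.

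Of 578 genes named or listed, DESeq2 lost 7 calls, total counts 31 and the 1-group model 204. Ltf went to -1.46 and Nkx2-5 to -1.13 in the 1-group model, and Pnlip to -1.64 without the fed spleen library and 9.48 without the fasting one. The causes were not tested. All tissues of a treatment share a pool of mice, so the treatment term pairs the libraries by pool. Leaving it out ended 1 call among the 578 genes. With 3 counts as the floor, genes near 0.1 CPM cannot be ranked.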

Other observations

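Some noncoding genes were also higher in spleen than in each tissue. Mir142hg, the host transcript of a blood cell microRNA on chromosome 11, was at 122 CPM in fed and 107 CPM in fasting spleen against at most 10.5 CPM elsewhere (log2 fold change 6.76 ± 0.14). The lincRNA Gm30211 on chromosome 6, whose gene spans the kappa constant gene Igkc on the same strand with no shared exon, was at 58.2 and 70.2 CPM against at most 4.42 CPM (log2 fold change 7.50 ± 0.31), and reads from kappa transcripts cannot be told apart from its own by these counts. Mirt1 was at 133 and 108 CPM against at most 11.5 CPM and F730311O21Rik at 149 and 136 CPM against at most 9.98 CPM. BE692007 was at 251 and 238 CPM, but it lies opposite Ms4a6c, and without a stated strand setting their reads cannot be told apart.

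The 9 GTPases of the Gimap cluster on chromosome 6, which act in lymphocyte survival, were all higher in each tissue, with 1651 and 1664 CPM in sum against at most 472 CPM in fed lung. The 14 Ly49 receptor genes (Klra) summed to 91.0 and 82.1 CPM against at most 37.4 CPM in fed lung, though near-identical members can share reads. Of 85 tested cytochrome P450 genes 10 were higher (background 24.8%) and 25 lower (background 20.8%) than the mean. Genes at 5 CPM or more in both spleen libraries and under 0.5 CPM in all 14 others, a rule chosen after seeing the values, numbered 83, of which 58 were immunoglobulin or T cell receptor segments. Among the other 25 were St18 at 7.46 and 8.77 CPM, Cdh17 at 13.9 and 15.8 CPM, Dscam at 14.9 and 14.6 CPM, Izumo1r at 11.4 and 14.5 CPM, and Prg3, an eosinophil granule protein, at 8.83 and 6.36 CPM, whose call was lost in DESeq2.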
